A study of Mus musculus with 4 samples.

Results

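The genes described here encode 10 integrin subunits that bind extracellular matrix: the alpha chains Itga1, Itga2, Itga5, Itga8, Itga11 and Itgav and the beta chains Itgb1, Itgb3, Itgb5 and Itgb8. They were taken by symbol from 38921 deposited gene rows, and each had 1 row. The RNA came from pancreatic fibroblasts of KPC mice (2 libraries, KPC 1 and KPC 2) and of wild type mice (2 libraries, WT 1 and WT 2). KPC usually names mice that model pancreatic cancer through engineered alleles, a mutant Trp53 among them, activated by a Cre under the Pdx1 promoter. Fibroblasts are not the cells that promoter is meant to target. The labels state no alleles, ages or numbers of animals. All 4 libraries carry the strain label mixed, and all cells were enriched by gravity separation and grown in DMEM with 10% serum at 37 degrees and 7% CO2. The labels call the 2 libraries of a group biological replicates without saying whether they came from separate animals or cultures, so p-values measure only the spread between these libraries.

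Integrins are receptors made of 1 alpha and 1 beta chain that link matrix outside the cell to actin inside it. Beta 1 pairs with most alpha chains; with alpha 1, alpha 2 or alpha 11 it forms collagen receptors, and with alpha 5 or alpha 8 it forms receptors for proteins that carry the tripeptide RGD. Alpha v pairs with beta 1, beta 3, beta 5, beta 6 or beta 8, binds vitronectin, fibronectin and the latency peptide of TGF-beta, and is known in activated fibroblasts for releasing TGF-beta from its latent complex.

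Counts summed to 57926327 in KPC 1, 68312367 in KPC 2, 53232634 in WT 1 and 22302141 in WT 2. Levels are counts scaled to a common library size by TMM and expressed as CPM, a scaling that assumes most genes do not differ between libraries. The 10 fibroblast markers, Col1a1, Dcn and Pdgfra among them, were detected in every library and summed to 14333 and 16266 CPM in KPC and 14659 and 15621 CPM in WT. Collagen genes and Acta2 made up most of that sum, and single markers differed: Vim stood at 1731 and 1698 CPM in KPC and 3695 and 2157 CPM in WT, Pdgfrb at 69.1 and 118 CPM in KPC and 194 and 132 CPM in WT, and Pdgfra at 13.8 and 48.7 CPM in KPC and 19.3 and 34.6 CPM in WT. Other cell types left unequal traces. The 12 macrophage markers summed to 834 and 1733 CPM in KPC and 71.5 and 228 CPM in WT, and all 12 were higher in both KPC libraries. The 9 epithelial markers summed to 1148 and 329 CPM in KPC and 30.4 and 390 CPM in WT. The 10 endothelial markers summed to 43.8 and 92.2 CPM in KPC and 931 and 155 CPM in WT, so WT 1 stood apart in them. Pericyte and smooth muscle markers summed to 1766 and 825 CPM in KPC and 335 and 446 CPM in WT, of which Des alone was 1507 and 620.1 CPM in KPC and 5.33 and 281 CPM in WT. Platelet markers summed to 76.0 and 188 CPM in KPC and 2.95 and 30.5 CPM in WT, of which Pf4 alone was 71.7 and 179.5 CPM in KPC and 0.133 and 26.3 CPM in WT. Endocrine markers summed to 944 CPM in WT 2 and at most 1.77 CPM elsewhere, and Schwann markers to 28.3 CPM in WT 1 and at most 5.46 CPM elsewhere. Trp53, which checks the label only loosely because these counts do not separate alleles, stood at 22.8 and 16.7 CPM in KPC and 34.2 and 29.1 CPM in WT. The log2 CPM of WT 2 correlated at 0.958 and 0.969 with KPC 1 and KPC 2 and at 0.949 with WT 1.

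**Figure D1:**
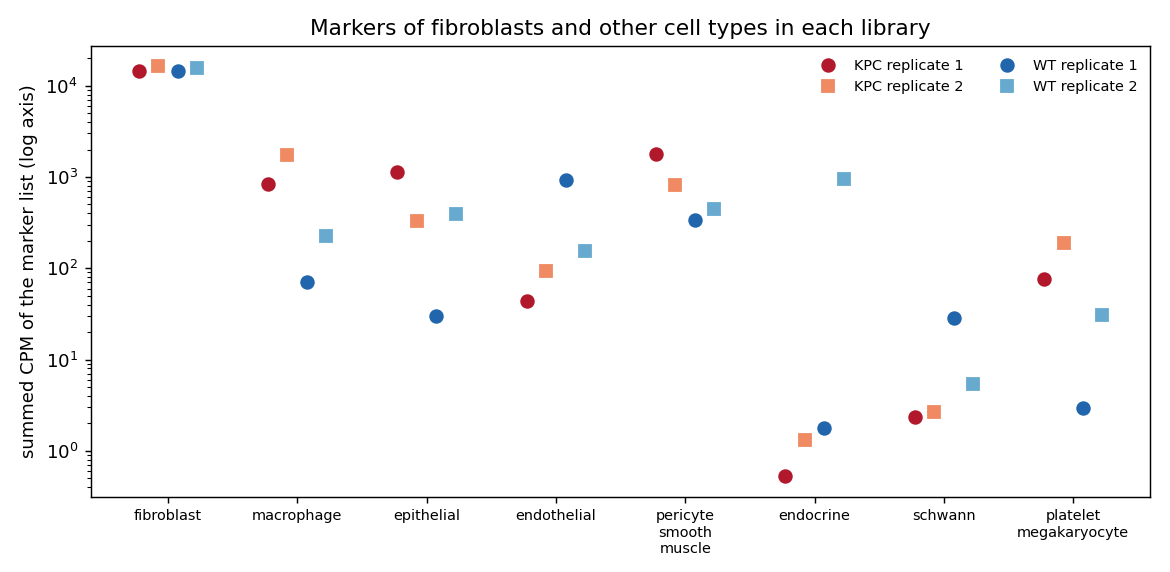
Summed CPM of the marker genes of 8 cell types (x axis) in each library (points, log axis). The fibroblast sums lie close together in all 4 libraries, though single fibroblast markers do not, while macrophage markers are higher in both KPC libraries and endothelial markers are highest in WT 1, at 931 CPM.

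Alpha v and its partner beta 5, together with alpha 8, lay below both WT libraries in both KPC libraries, as did 20.5% of all rows. The other 7 subunits overlapped between the groups. Itgav averaged 54.1 ± 2.26 CPM in KPC and 88.2 ± 9.85 CPM in WT, and Itgb5 averaged 193 ± 34.4 CPM in KPC and 307 ± 24.7 CPM in WT (SD, n = 2 each). Itga8 averaged 2.58 ± 0.790 CPM in KPC and 5.11 ± 0.202 CPM in WT (SD, n = 2 each). By edgeR's quasi-likelihood test of KPC against WT with Benjamini-Hochberg adjustment over 23046 rows, 0 of the 10 subunits passed at an adjusted p of 0.05, as did 0.0% of all tested rows. At an unadjusted p under 0.05, 3 subunits were lower in KPC and 0 higher, where 3.94% of all rows were lower and 4.73% higher. That count was smaller in some of the fits that left out 1 library. Such fits leave 1 library in a group, so they do not separate lost power from dependence on a library. Without KPC 1 the log2 fold changes were -0.69 for Itga8, -0.66 for Itgav and -0.49 for Itgb5. The same 3 subunits were below both WT libraries in both KPC libraries, where 20.5% of all rows were. None was above both WT libraries, where 20.6% of all rows were. DESeq2 called 0 of the 10, against 2.72% of all rows, and limma voom called 0 of the 10, against 0.0% of all rows. Without WT 2, edgeR called 1.79% of rows higher and 1.69% lower, and 0 of the 10. The median log2 fold change of the 10 was -0.18 (6 negative, 4 positive), beside -0.01 over all tested rows, of which 51.2% were negative. Of the 10 fibroblast markers, 7 had a positive and 3 a negative log2 fold change. Vim and Pdgfrb were below both WT libraries in both KPC libraries, with log2 fold changes of -0.77 and -0.80. Col1a1 and Thy1 were above both WT libraries in both KPC libraries, with log2 fold changes of 0.19 and 0.59. The part of these markers in the integrin values was not tested. In RNA from a culture, fewer cells of a type and less RNA per cell cannot be told apart.

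**Figure D2:**
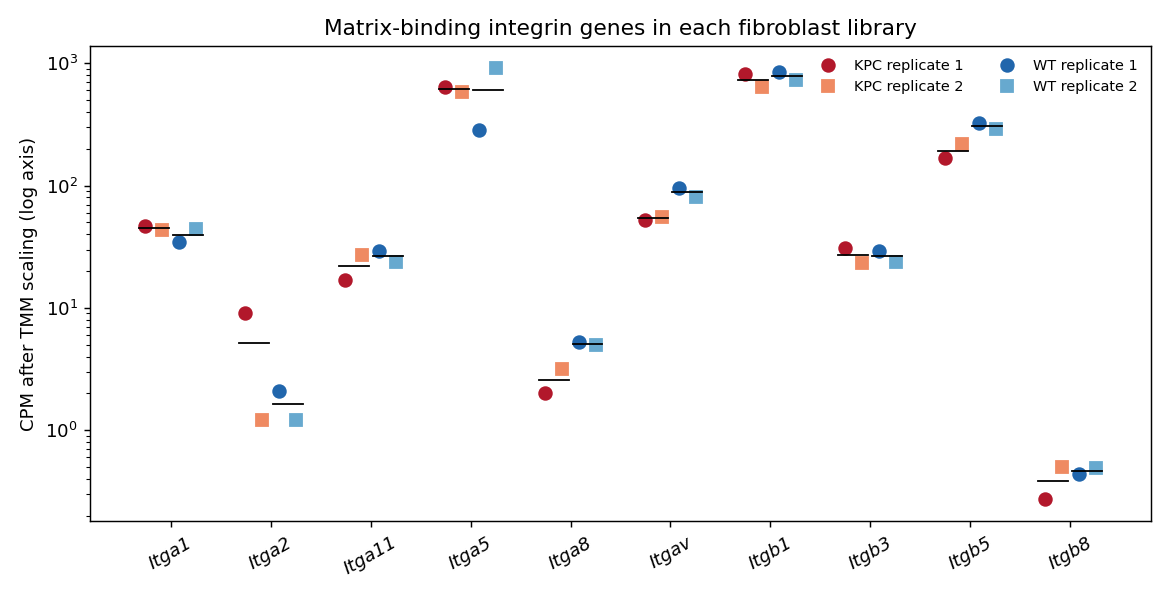
CPM of the 10 subunits in each library (points, log axis), with the mean of each group as a black line. Itga8, Itgav and Itgb5 lie below both WT libraries in each KPC library; Itga5 differs most between the WT libraries, at 286 and 922 CPM.

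Levels of different genes can be compared only per length, and were divided by the exon length (GENCODE M21) inside each deposited interval. On that scale Itgb1, the common beta chain, stood at 198 and 157 CPM per kilobase in KPC and 208 and 178 in WT. Itga5 stood at 129 and 119 CPM per kilobase in KPC and 57.9 and 187 in WT, and Itgb5 at 50.2 and 64.6 in KPC and 96.3 and 85.9 in WT. These 3 made up the most abundant subunits in every library. Their order was not fixed: Itga5 was above Itgb1 in WT 2 and below Itgb5 in WT 1, so neighbours in the order did not differ beyond their spread.

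A middle tier held Itgav, Itga11 and Itgb3, between 3.28 and 8.86 CPM per kilobase in all libraries. Their ranges overlapped, since Itgav ran from 4.88 to 8.86, Itga11 from 3.28 to 5.71 and Itgb3 from 3.98 to 5.27 CPM per kilobase. Below them were Itga1 (without the reads of a gene inside it, described with the collagen receptors), Itga2 and Itga8, between 0.275 and 2.15 CPM per kilobase. Itgb8 was the lowest in each library, at 0.0246 to 0.0453 CPM per kilobase. Per exon length, no value of an upper tier overlapped a lower one. Alpha chains cannot reach the surface without a beta chain, but RNA levels do not give the amount of either protein. Covered bases exceeded the annotated exon length in 6 of the 10 genes, up to 3.12 times in Itgb5 and 2.84 times in Itga5, so the counts hold reads from introns, and a level per exon length is too high for those genes.

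**Figure D3:**
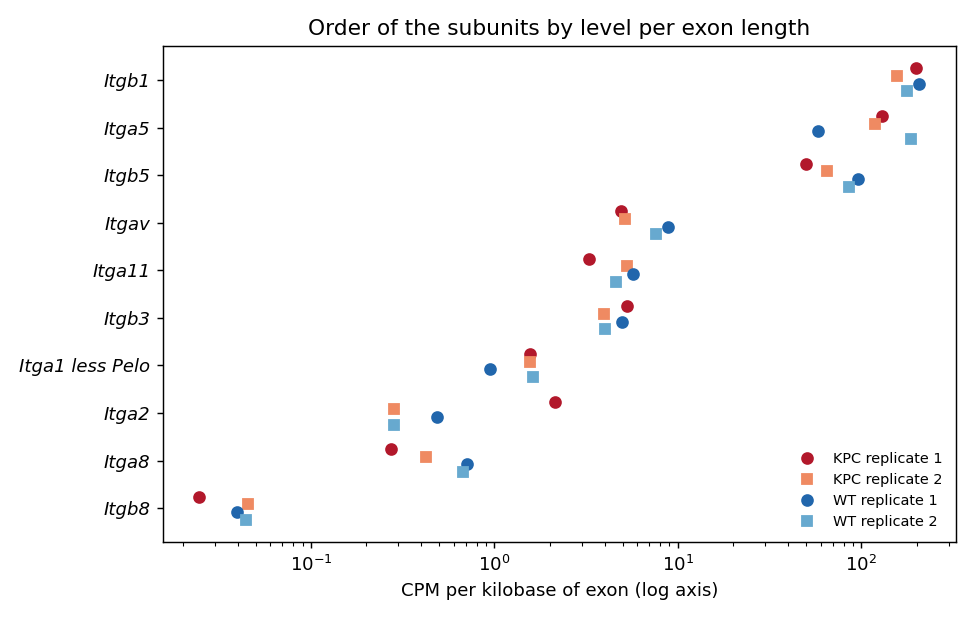
CPM per kilobase of exon (log axis) of each subunit (rows, highest mean at the top) in each library (points). Itga1 is shown without the reads of the Pelo row; Itgb1, Itga5 and Itgb5 lie above 50 CPM per kilobase and Itgb8 below 0.05.

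Itgav (chromosome 2, 83724397 to 83806916 on the plus strand, mm10) encodes alpha v, the chain shared by the vitronectin and TGF-beta-activating receptors. It stood at 52.5 and 55.7 CPM in KPC and at 95.2 and 81.3 CPM in WT. The 2 KPC libraries were close to each other and both lay below both WT libraries. Its log2 fold change was -0.71 ± 0.18 (SE), the smallest p of the 10 subunits, and it did not pass the edgeR test (adjusted p = 0.438). DESeq2 gave an adjusted p of 0.0544, the lowest over 12 alternatives. Without WT 1, the library with the most endothelial marker RNA, the log2 fold change was -0.59, and without WT 2 it was -0.81. In each leave-one-out fit here and below, the single library left in a group was assumed to vary like the other group.

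Itgb5 (chromosome 16, 33829665 to 33949153, plus strand) encodes beta 5, which pairs only with alpha v. It stood at 169 and 218 CPM in KPC and at 324 and 289 CPM in WT. The groups did not overlap, and KPC 1 was the lowest library. The log2 fold change was -0.67 ± 0.20 (SE; edgeR adjusted p = 0.529), -0.58 without WT 1 and -0.49 without KPC 1.

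Ratios within a library carry no scaling between libraries. The Itgav to Itgb1 ratio per exon length was 0.0246 and 0.0330 in KPC and 0.0427 and 0.0424 in WT. The Itgb5 to Itgb1 ratio was 0.253 and 0.412 in KPC and 0.464 and 0.482 in WT. Both ratios were lower in both KPC libraries. The Itgb5 to Itgav ratio was 10.3 and 12.5 in KPC and 10.9 and 11.4 in WT, with the WT values between the KPC values. Of the 4 beta chains described here, summed per exon length and so without Itgb6, Itgb5 made up 19.8% and 28.7% in KPC and 31.2% and 32.0% in WT, and Itgb1 made up 78.1% and 69.6% in KPC and 67.2% and 66.5% in WT.

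The promoter windows of the 3 genes that were lower in both KPC libraries are shown so that their start regions can be compared, each 250 bases before to 50 after the RefSeq start (GRCm38.p6). Capitals mark matches to the GC box GGGCGG on either strand.
Itgav, chr2:83724147-83724446, plus strand: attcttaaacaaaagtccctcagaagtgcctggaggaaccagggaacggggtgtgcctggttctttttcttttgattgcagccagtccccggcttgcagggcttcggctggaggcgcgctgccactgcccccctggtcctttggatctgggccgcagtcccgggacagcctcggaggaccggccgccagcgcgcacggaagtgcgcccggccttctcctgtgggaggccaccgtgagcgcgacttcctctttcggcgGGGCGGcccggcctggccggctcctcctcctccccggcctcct
Itgb5, chr16:33829415-33829714, plus strand: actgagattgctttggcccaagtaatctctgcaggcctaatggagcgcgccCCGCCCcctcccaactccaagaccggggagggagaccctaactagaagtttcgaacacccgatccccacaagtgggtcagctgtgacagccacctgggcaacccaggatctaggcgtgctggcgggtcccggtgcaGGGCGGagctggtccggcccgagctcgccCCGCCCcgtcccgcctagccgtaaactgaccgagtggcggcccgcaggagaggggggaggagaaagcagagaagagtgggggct
Itga8, chr2:12301895-12302194, minus strand: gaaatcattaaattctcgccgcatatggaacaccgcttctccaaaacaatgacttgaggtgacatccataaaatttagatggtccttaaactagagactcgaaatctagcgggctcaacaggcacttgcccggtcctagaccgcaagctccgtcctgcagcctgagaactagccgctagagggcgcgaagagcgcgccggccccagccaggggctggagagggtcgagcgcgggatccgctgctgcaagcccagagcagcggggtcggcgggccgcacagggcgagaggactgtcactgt

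Itgav held 1 GC box, Itgb5 held 3 and Itga8 held 0. Of the 10 subunits, 9 had a window, and 5 of these (Itga2, Itga5, Itgav, Itgb1 and Itgb5) held a GC box, against 35.7% of 32851 windows. The AP-1 letters TGANTCA and the TATA box letters TATAAA were in none of the 9, against 7.81% and 13.6% of all windows. The letters CCAAT were in Itgb8 alone and the TEAD letters GGAATG in Itgb1 alone, against 37.4% and 14.7%. Searches covered both strands, and none of the 5 motifs contains another. The windows of the 9 were 56.7% to 68.0% G and C, beside a median of 52.7% over all windows. A match describes the letters only.

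Itgb3 (chromosome 11, 104608000 to 104670476, plus strand), the beta 3 chain of the vitronectin receptor of osteoclasts and endothelium, stood at 31.1 and 23.5 CPM in KPC and at 29.2 and 23.5 CPM in WT. The groups overlapped almost fully, with a log2 fold change of 0.05 ± 0.23 (SE; edgeR adjusted p = 0.976). Its direction turned with upper quartile scaling, to -0.024. Itgb8 (chromosome 12, 119158022 to 119238802, minus strand), whose product with alpha v activates TGF-beta, had 16 and 34 counts in KPC and 23 and 11 counts in WT. These are 0.272 and 0.501 CPM in KPC (exact 95% Poisson intervals 0.155 to 0.442 and 0.347 to 0.701) and 0.438 and 0.492 CPM in WT (0.277 to 0.657 and 0.246 to 0.880). All 4 intervals overlapped, so a difference was not detectable at this depth. Such intervals cover counting error only.

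Itgb1 (chromosome 8, 128685654 to 128733200, plus strand) stood at 809.6 and 640.0 CPM in KPC and at 847 and 727.5 CPM in WT. KPC 1 lay between the WT libraries and KPC 2 below them. The mean was 725 ± 120.0 CPM in KPC and 787 ± 84.4 CPM in WT (SD, n = 2 each), a log2 fold change of -0.12 ± 0.20 (SE; edgeR adjusted p = 0.910).

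Itga5 (chromosome 15, 103344289 to 103366763, minus strand) encodes alpha 5, the chain of the main fibronectin receptor. It stood at 638 and 587 CPM in KPC and at 286 and 922 CPM in WT. Both KPC libraries lay between the WT libraries, whose spread was 450.1 CPM (SD, n = 2) against 36.0 CPM in KPC. The log2 fold change was 0.02 ± 0.56 (SE), with an edgeR adjusted p of 0.996, and its direction was not stable. It moved most with the WT libraries, to 1.10 without WT 2 and -0.59 without WT 1, and was -0.036 without KPC 1. With upper quartile scaling of all 4 libraries it was -0.043. Of the 6 alpha chains described here, summed per exon length, Itga5 made up 91.4% and 90.3% in KPC and 77.6% and 92.7% in WT. Other partners of beta 1 were left out of that sum, among them Itga9, at 197 and 189.7 CPM in KPC and 311 and 182 CPM in WT, so it is no share of all beta 1 partners. WT 1 was the library apart on this measure, and it also held the most endothelial marker RNA; the part of those cells in the Itga5 level was not tested.

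Itga8 (chromosome 2, 12106632 to 12301920, minus strand) encodes alpha 8, an RGD-binding chain of smooth muscle, kidney mesenchyme and stellate cells whose best known ligand is nephronectin. It had 119 and 213 counts in KPC and 276 and 111 counts in WT, or 2.02 and 3.14 CPM in KPC and 5.25 and 4.96 CPM in WT. The groups did not overlap, and the log2 fold change was -0.98 ± 0.32 (SE; edgeR adjusted p = 0.541). It ran from -1.34 without KPC 2 to -0.69 without KPC 1, and stayed negative in 12 of 12 alternatives. The 8 pericyte and smooth muscle markers had no common direction: 3 were higher in both KPC libraries, 1 lower and 4 overlapped. Cspg4 stood at 14.3 and 15.1 CPM in KPC and 101.9 and 31.7 CPM in WT, the order of Itga8, while Myh11 stood at 210.2 and 148 CPM in KPC and 48.3 and 99.0 CPM in WT. Their part in the Itga8 level was not tested. Npnt, the nephronectin gene, stood at 101 and 50.7 CPM in KPC and 64.6 and 35.8 CPM in WT, with overlap; it was named for this relation after its values were seen.

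Among the collagen receptors, the Itga1 row did not measure Itga1 alone. Itga1 (chromosome 13, 114958079 to 115101964, minus strand) encodes alpha 1, which prefers collagen IV. The row of Pelo, a ribosome rescue factor gene, lies wholly inside its interval (115088357 to 115090188, same strand). Pelo had 1497 and 1529 counts in KPC and 1135 and 499 in WT. Where every read of Pelo was also counted for Itga1, these were 54.3% and 51.6% of the Itga1 count in KPC and 62.5% and 50.2% in WT.

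As deposited, Itga1 stood at 46.8 and 43.7 CPM in KPC and at 34.5 and 44.5 CPM in WT, with a log2 fold change of 0.20 ± 0.20 (SE; edgeR adjusted p = 0.819). Less the Pelo row it stood at 21.4 and 21.2 CPM in KPC and at 12.9 and 22.1 CPM in WT, with a log2 fold change of 0.28 ± 0.30 (SE; edgeR adjusted p = 0.829). WT 1 was the low library either way and the groups overlapped. Pelo itself stood at 25.4 and 22.5 CPM in KPC and 21.6 and 22.3 CPM in WT. In the other members, rows that overlap the interval held at most 5.88% of the count (an antisense row at Itga8 in KPC 1).

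**Figure D4:**
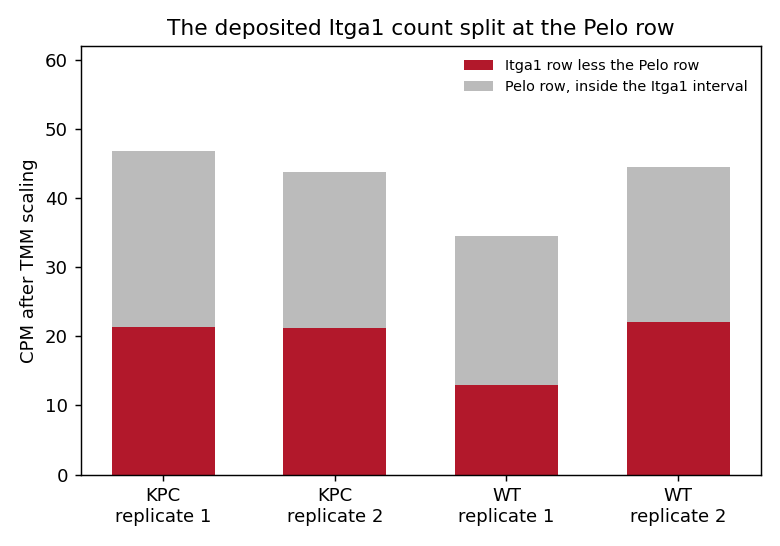
The deposited Itga1 level (whole bar, CPM) in each library, split into the Pelo row that lies inside its interval (grey) and the remainder (red). The remainder is 21.4 and 21.2 CPM in KPC and 12.9 and 22.1 CPM in WT.

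Itga2 (chromosome 13, 114835916 to 114932041, minus strand) encodes alpha 2, the collagen I receptor chain of platelets and epithelia. It had 537 counts in KPC 1, 82 in KPC 2, 109 in WT 1 and 27 in WT 2. That is 9.13 CPM in KPC 1 (exact 95% Poisson interval 8.37 to 9.93) and 1.21 CPM in KPC 2 (0.962 to 1.501), against 2.07 CPM in WT 1 (1.70 to 2.50) and 1.21 CPM in WT 2 (0.796 to 1.76). One KPC library was high and the other lay within the WT range. The log2 fold change of 1.63 ± 0.98 (SE; edgeR adjusted p = 0.681) rested on KPC 1 and was -0.44 without it. KPC 1 also had the highest sum of epithelial markers, with Krt8 at 489.8 and 85.1 CPM in KPC and 0.400 and 146 CPM in WT. Krt18, Krt19, Cdh1, Muc1 and Sox9 were highest in KPC 1 as well, but Epcam, Cldn4 and Cldn7 were not. Epcam stood at 5.41 and 18.1 CPM in KPC and 0.190 and 13.6 CPM in WT. Cldn4 stood at 8.40 and 16.8 CPM in KPC and 0.228 and 44.6 CPM in WT. The part of epithelial cells in the Itga2 level was not tested. The platelet markers did not share 1 pattern. Itga2b was level, at 1.53 and 1.62 CPM in KPC and 1.67 and 1.48 CPM in WT. Pf4 stood at 71.7 and 179.5 CPM in KPC and 0.133 and 26.3 CPM in WT. Ppbp stood at 1.24 and 6.09 CPM in KPC and 0.0 and 2.01 CPM in WT. Gp6 was highest in KPC 1, at 1.17 and 0.560 CPM in KPC and 0.723 and 0.492 CPM in WT. The part of platelet RNA in the Itga2 level was not tested.

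Itga11 (chromosome 9, 62677826 to 62783982, plus strand) encodes alpha 11, the fibrillar collagen receptor chain of mesenchymal cells. It stood at 16.8 and 27.0 CPM in KPC and at 29.3 and 23.7 CPM in WT, with KPC 2 between the WT libraries. The log2 fold change was -0.28 ± 0.29 (SE; edgeR adjusted p = 0.829). Per exon length, Itga11 was above Itga1 (less Pelo) and Itga2 in every library. Itga1 less Pelo, Itga2 and Itga11 together came to 5.41% and 5.97% of Itga5 in KPC and to 12.4% and 3.50% in WT, so the WT libraries again lay on both sides of KPC.

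The list of 10 other subunits held mostly chains of the laminin, tenascin, VCAM and platelet receptors. It also held Itgb6, a partner of alpha v, and Itga10, at 1.09 and 1.02 CPM in KPC and 1.67 and 1.25 CPM in WT. Of the 10 other subunits, 4 had a positive and 6 a negative log2 fold change, the same tally as in the 10 members. Their median log2 fold change was -0.17. At an unadjusted edgeR p under 0.05, 1 was higher in KPC and 0 lower, against 4.73% and 3.94% of all rows. With adjustment over all rows edgeR called 0, and DESeq2 called 1, against 2.72% of all rows. In both KPC libraries only Itgb7 lay above both WT libraries and only Itga10 below, against 20.6% and 20.5% of all rows. The 3 of smallest p were Itgb7, Itga4 and Itga6. Itgb7, a leukocyte homing chain, stood at 4.78 and 3.16 CPM in KPC and 0.742 and 1.30 CPM in WT. Itga6, a laminin receptor chain of epithelia, stood at 58.3 and 12.9 CPM in KPC and 17.7 and 11.4 CPM in WT, highest in KPC 1 like Itga2. Itga4 stood at 1.53 and 1.40 CPM in KPC and 5.57 and 1.48 CPM in WT, where WT 1 alone was high.

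Of 7 leukocyte integrin genes, 6 were tested, and 5 were higher in both KPC libraries (median log2 fold change 1.45; 4 higher with an unadjusted p under 0.05, 0 called by edgeR and 2 by DESeq2). Over all rows, 20.6% were higher in both KPC libraries, 4.73% were higher at that unadjusted p, and DESeq2 called 2.72% in either direction. Itgb2, the common leukocyte beta chain, stood at 23.6 and 42.6 CPM in KPC and 1.03 and 5.59 CPM in WT. Itgax stood at 8.87 and 5.72 CPM in KPC and 0.514 and 1.25 CPM in WT, and Itgal at 2.28 and 1.09 against 0.304 and 0.447 CPM. The macrophage markers, which include the leukocyte integrin Itgam, differed between the same libraries, with Lyz2 at 629 and 1416 CPM in KPC and 6.24 and 132 CPM in WT. Whether the difference between the leukocyte and the matrix-binding subunits exceeds chance was not tested.

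**Figure D5:**
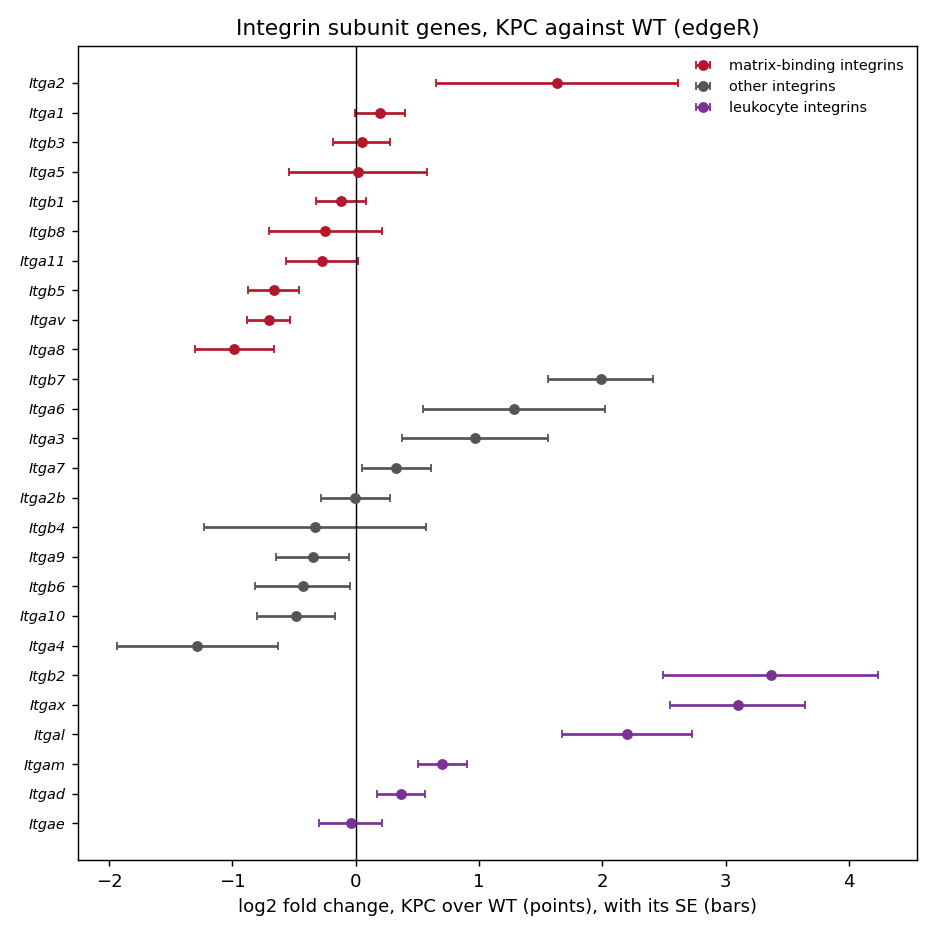
Log2 fold change of KPC over WT (points) with its standard error (bars) for the tested integrin subunit genes, grouped as matrix-binding, other and leukocyte integrins. Itga8, Itgav and Itgb5 lie lowest among the matrix-binding genes, at -0.98, -0.71 and -0.67, and Itgb2 is the highest leukocyte gene, at 3.37.

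Inside the cell, integrin tails bind talins and kindlins, which activate the receptor, and the adaptors and kinases of focal adhesions. Of 29 such genes, 14 had a positive and 15 a negative log2 fold change (median -0.01). Two-sided edgeR tests gave 2 an unadjusted p under 0.05, both higher in KPC, where 4.73% of all rows were higher and 3.94% lower. With adjustment over all rows edgeR called 0, and DESeq2 called 2, against 2.72% of all rows in either direction. Without regard to a test, 10 of the 29 lay below both WT libraries in both KPC libraries and 5 above them, against 20.5% and 20.6% of all rows. Among the 10 were Zyx, the zyxin gene, at 258 and 265 CPM in KPC and 289 and 404 CPM in WT, and Tns1, a tensin gene, at 192 and 143 CPM in KPC and 287 and 214 CPM in WT; both were chosen after their values were seen. Tns4, a tensin of epithelia, stood at 11.5 and 8.98 CPM in KPC and 0.323 and 0.760 CPM in WT, and Fermt3, the kindlin of blood cells, at 11.0 and 23.2 against 3.79 and 5.68 CPM. Ptk2b stood at 48.9 and 26.0 CPM in KPC and 15.8 and 22.5 CPM in WT. The fibroblast kindlin Fermt2 stood at 125 and 116 CPM in KPC and 86.7 and 141 CPM in WT, and talin, Tln1, at 203 and 167 against 249.6 and 186 CPM, both with overlap; these 2 were chosen after their values were seen.

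The matrix ligands of these receptors also lacked a common direction. Of 19 ligand genes 18 were tested, with 9 positive and 9 negative log2 fold changes and a median of 0.00. In edgeR 0 had an unadjusted p under 0.05, where 4.73% of all rows were higher and 3.94% lower. With adjustment over all rows edgeR called 0, as did DESeq2, which called 2.72% of all rows in either direction. In both KPC libraries 6 lay below and 3 above both WT libraries, against 20.5% and 20.6% of all rows. The 3 of smallest p were Edil3, Fbn1 and Spp1. Spp1 (osteopontin, a ligand of alpha v receptors that macrophages also make) stood at 860.1 and 1050.2 CPM in KPC and 29.7 and 309.6 CPM in WT. Fbn1, the fibrillin 1 gene, stood at 219 and 184 CPM in KPC and 369.6 and 248 CPM in WT, and Edil3 at 3.20 and 2.68 against 9.91 and 3.80 CPM.

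Of 12 genes of latent TGF-beta, its carriers and its targets, 1 stood higher and 1 lower at an unadjusted p below 0.05 (median log2 fold change 0.00), and edgeR called 0 and DESeq2 1, on the lower side. Among all rows, 4.73% were higher and 3.94% lower at that unadjusted p, and DESeq2 called 2.72% in either direction. In both KPC libraries 2 lay below and 1 above both WT libraries, against 20.5% and 20.6% of all rows. Ltbp1, which tethers latent TGF-beta to the matrix, stood at 65.8 and 46.8 CPM in KPC and 125 and 109 CPM in WT, a log2 fold change of -1.06 ± 0.23 (SE; edgeR adjusted p = 0.394). Nrros, the carrier used by macrophages, stood at 16.5 and 21.4 CPM in KPC and 10.0 and 13.6 CPM in WT, and the target Smad7 at 33.2 and 25.2 against 35.1 and 33.6 CPM. The ligand genes Tgfb1, Tgfb2 and Tgfb3 overlapped between the groups.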

How the data were processed

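Poly-A RNA was sequenced as single reads of 50 bases, as the labels' protocols state. Tools listed in the submitters' processing notes, with no roles, are TopHat2 2.0.3, SAMtools 0.1.18, FastQC 0.10.1 and bedtools, whose version is not given; the build listed is mm10. The authors deposited 1 table per library with a read count per gene interval. Covered bases were also compared with the exon length, as given with the levels per exon length. The deposited fraction of bases covered by reads was used only as a check. That counts are raw and run over whole intervals, without strand, was read from the values; reads with several matches may be counted more than once, so totals are not numbers of reads, and paralogs and overlapping genes are uncertain.

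The counts went into edgeR 4.0.16 under R 4.3.3 (filterByExpr, minimum count 10; TMM; quasi-likelihood test, two-sided; Benjamini-Hochberg over 23046 rows). All 10 members passed the filter. An exact permutation test of 2 against 2 has 6 arrangements and cannot reach 0.05. Alternatives were other scalings and filters, DESeq2 1.42.0, limma voom 3.58.1, leaving out each library, and the replicate number as a block. The script was tested on simulated data. Exon lengths came from GENCODE M21, promoters from RefSeq and figures from matplotlib 3.10.9. Chi-square statistics comparing the 2 libraries of a group, divided by their degrees of freedom, came to 80.9 for KPC and 147 for WT. The libraries of a group therefore differed by more than counting error. That does not show whether they came from separate animals or cultures. Libraries of different groups were not compared this way. Listed symbols without a row (Tns2, Adgre1, Ccn1 and Ccn2) were matched by RefSeq synonym. Members and lists were chosen with earlier results of these data known. Set for naming were all members, the 3 genes of smallest p per pathway list and the 2 genes of highest mean CPM per marker list. Markers are named only beside a result, and several fall outside that rule, Vim, Pdgfrb and Cspg4 among them. Itga9 and Itga10 also fall outside it, as do the genes said to be chosen after their values were seen.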

Additional observations from a re-analysis of the deposited data

How the results depend on the processing

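With the replicate number as a block, edgeR called 0 rows, as without it; the median log2 fold change of the 10 subunits was -0.22 under the block. Same-numbered libraries deviated from their group means with a correlation of 0.136, and nothing in the labels ties the numbers together. DESeq2 called 333 rows higher and 294 lower, none of them among the 10. With 1 library left out, edgeR called 0 to 429 rows higher and 0 to 406 lower, and 0 of the 10 in each case; the highest counts came without WT 2. Over the same fits the median of the 10 ran from -0.31 to -0.19. In them 1 to 3 subunits lay above and 4 to 5 below the other group without overlap. Such separation is reached more easily with 3 libraries than with 4. The share of all rows so separated was not determined with 3 libraries. These counts therefore cannot be told from the background, and no conclusion is drawn from them. Of 120 single-gene alternatives, 10 turned the direction. With upper quartile factors Itga5 was at -0.043 and Itgb3 at -0.024. With 1 library left out, the log2 fold change ran from -0.44 to 2.46 for Itga2, -0.59 to 1.10 for Itga5, -0.66 to 0.035 for Itga11, -0.29 to 0.037 for Itgb1, -0.16 to 0.23 for Itgb3 and -0.76 to 0.13 for Itgb8; the cause was not tested. Itgav, Itgb5 and Itga8 stayed negative in all 12 alternatives. Subtracting Pelo was chosen after seeing the data. With the longest transcript as length, 0 subunits changed rank by mean level over the 4 libraries. In KPC 1, however, Itga1 less Pelo then made up 2.21% of the alpha chains described here and Itga11 2.10%. Their order was thus reversed and their tiers were not separate in that library. Itga11 stayed above Itga1 less Pelo in KPC 2, WT 1 and WT 2. Low depth limits Itgb8 and Itga8.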
